A study of Mus musculus with 6 samples.

Results

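The genes of the mouse major histocompatibility complex (MHC), together with the genes that cut, carry and load the peptides that MHC molecules display, were measured in the luminal epithelium of the uterus, the cell layer that an implanting embryo touches first. The genes were taken by name. All 39 measured symbols that start with H2-, the prefix of the mouse MHC, were included with 14 further genes (B2m, Tap1, Tap2, Tapbp, Cd74, Ciita, Nlrc5, Erap1, Psmb8, Psmb9, Psmb10, Psme1, Psme2 and Cd1d1). They made 53 of the 21740 genes measured, and the rule that picks them uses no measured value. In RefSeq (GRCm38.p6), 50 of them carry a current symbol, H2-Ke2 and H2-t9 are older names of Pfdn6 and Gm7030, and H2-gs10 was not matched. On chromosome 17 lie 43 of the genes, and 3 (H2-Bl, H2-Ea and H2-T10) are annotated as pseudogenes.

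Class I molecules are made of a heavy chain, such as H2-K1 or H2-D1, and the light chain B2m. Nearly all nucleated cells carry them and use them to show peptides from their own proteins to cytotoxic T cells and natural killer cells. Class II molecules pair an alpha with a beta chain and are kept for dendritic cells, macrophages and B cells, although interferon gamma can switch them on in epithelia through the transactivator Ciita. In the uterus this epithelium lies between maternal leukocytes and an embryo that carries paternal antigens.

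All females were wild type, of a mixed C57BL6/129svj background, 2 to 4 months old, and mated naturally with wild type males. The first group was taken on gestation day 3.5 (D3.5), when blastocysts were found in the uterus, and the second on gestation day 4.5 (D4.5), when implantation sites were seen. Epithelial sheets were freed with 0.5% dispase and gentle scraping, and 1 µg of total RNA was labelled for each of 6 one-colour Affymetrix arrays, 3 per day. Nothing in the labels ties each array to a female of its own, so the p-values measure the spread between these arrays, which may be technical.

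Deposited intensities had medians of 108.6 to 118.4 on the D3.5 arrays and 78.9 to 80.2 on the D4.5 arrays. Exactly equal values were found in 356 to 1092 of the genes measured on a single row between any pair of D3.5 arrays, in 5 to 24 between D4.5 arrays and in 0 between the days. Processing differences between the days and gestation day cannot be told apart. Values are therefore given as log2(intensity + 16) after quantile normalization of the 6 arrays. Levels of different genes come from different probes and are not compared. As a gauge of background, 1346 genes of odour, pheromone and taste receptors were used. Their 95th percentile was 6.56 on D3.5 and 6.37 on D4.5, and the central 95% of their log2 changes (D4.5 minus D3.5) ran from -0.59 to 0.33. Of these receptor genes 404 (30.0%) passed the test between the days. D3.5 array 1 stood apart, with an array weight of 0.25 in limma against 0.71 to 2.92 for the other 5 arrays. All 11 epithelial markers (Epcam, Krt8, Cdh1 and others) lay above the receptor level on both days, and their mean was 10.39 to 10.76 over the 6 arrays.

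Promoter sequences are shown first, for some of the genes that hold the motifs below. Psmb8 and Erap1 were chosen also by their change. The promoters of MHC genes are known for a shared module in which a CRE-like half-site, bound by CREB-family factors, stands at a fixed distance from a Y box, the CCAAT motif bound by NF-Y; the transactivators Ciita (class II) and Nlrc5 (class I) attach to the factors on it. The windows run from 250 bases before to 50 after the start of the RefSeq transcript, 300 bases each, 5′ to 3′ on the strand of the gene. H2-K1, H2-D1, B2m and H2-Aa are shown as examples that hold this pair of motifs. Other genes of the set, such as H2-M3 and H2-Q7, hold both motifs too and are not shown. Psmb8 and Erap1 are the proteasome and loading genes among 5 genes that fell on D4.5 and hold an interferon-type motif. The others are H2-T23, H2-t9 and H2-M11. B2m, H2-T22, Psme1, H2-DMb2 and H2-M3 hold such a motif too and did not pass the test between the days. Over all genes, with or without such a motif, 26.4% fell. The share of falls among all genes with such a motif was not taken, so a link between motif and fall was not tested. Capitals mark TGACG (CRE half-site), CCAAT (Y box), GAAANNGAA (core of the interferon-stimulated response element) and TTCNNNGAA (gamma-activated site), each searched on both strands and marked also where it reads on the opposite one. Where motifs overlap, the capitals run on.
H2-K1, GRCm38.p6 chr17:34000298-34000597, minus strand: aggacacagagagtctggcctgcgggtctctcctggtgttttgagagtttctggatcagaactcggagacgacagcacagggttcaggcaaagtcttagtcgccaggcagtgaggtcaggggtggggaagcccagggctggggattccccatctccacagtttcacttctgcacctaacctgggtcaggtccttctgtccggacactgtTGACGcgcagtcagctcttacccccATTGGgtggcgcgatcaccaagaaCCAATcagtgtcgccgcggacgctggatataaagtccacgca
H2-D1, GRCm38.p6 chr17:35262844-35263143, plus strand: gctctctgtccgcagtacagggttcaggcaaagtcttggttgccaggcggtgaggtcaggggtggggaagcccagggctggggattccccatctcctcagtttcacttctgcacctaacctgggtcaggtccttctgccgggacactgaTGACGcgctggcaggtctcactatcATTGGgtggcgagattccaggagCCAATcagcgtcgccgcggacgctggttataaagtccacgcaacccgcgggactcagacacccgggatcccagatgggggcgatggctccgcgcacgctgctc
B2m, GRCm38.p6 chr2:122147437-122147736, plus strand: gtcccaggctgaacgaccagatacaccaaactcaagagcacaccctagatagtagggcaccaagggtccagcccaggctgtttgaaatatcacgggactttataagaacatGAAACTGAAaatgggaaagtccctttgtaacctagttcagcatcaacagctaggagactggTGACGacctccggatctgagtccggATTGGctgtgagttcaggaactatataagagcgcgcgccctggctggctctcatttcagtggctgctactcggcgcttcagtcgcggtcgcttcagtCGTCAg
H2-Aa, GRCm38.p6 chr17:34287774-34288073, minus strand: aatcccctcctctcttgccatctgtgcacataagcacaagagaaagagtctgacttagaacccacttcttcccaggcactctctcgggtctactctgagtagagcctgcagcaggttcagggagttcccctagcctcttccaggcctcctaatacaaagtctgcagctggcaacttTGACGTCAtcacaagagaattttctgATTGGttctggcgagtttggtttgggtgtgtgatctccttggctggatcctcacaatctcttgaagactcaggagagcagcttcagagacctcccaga
Psmb8, GRCm38.p6 chr17:34197945-34198244, plus strand: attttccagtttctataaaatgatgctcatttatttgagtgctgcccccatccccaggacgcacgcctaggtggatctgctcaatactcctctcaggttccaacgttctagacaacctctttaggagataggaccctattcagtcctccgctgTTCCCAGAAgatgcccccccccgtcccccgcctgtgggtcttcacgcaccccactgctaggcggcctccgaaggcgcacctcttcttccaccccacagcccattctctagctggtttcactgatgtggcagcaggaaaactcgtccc
Erap1, GRCm38.p6 chr13:74639603-74639902, plus strand: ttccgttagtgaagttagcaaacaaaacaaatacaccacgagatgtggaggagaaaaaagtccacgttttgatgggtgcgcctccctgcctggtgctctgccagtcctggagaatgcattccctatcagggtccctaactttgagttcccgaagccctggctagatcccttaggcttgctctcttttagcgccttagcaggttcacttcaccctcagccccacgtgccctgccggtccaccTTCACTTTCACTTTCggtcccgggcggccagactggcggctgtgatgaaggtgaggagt

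In H2-K1, H2-D1 and B2m the first letter of the CRE half-site stood 25 bases before that of the reversed Y box, and in H2-Aa 26 bases before it. H2-K1 had a further window that starts 14 bases away and holds the same pair. This spacing was looked for after the windows had been read. It was present in 54 of 32817 windows of all genes (0.165%) and in 5 of the 40 MHC and antigen presentation genes with a window (12.5%), the fifth being H2-M3, which presents formylated peptides. A Y box alone was common, in 37.4% of all windows and in 31 of the 40 genes (77.5%). A CRE half-site was in 20.8% of all windows and in 16 of the 40 (40.0%), the interferon-stimulated core in 8.6% and 6 of the 40 (15.0%), and the gamma-activated site in 8.3% and 5 of the 40 (12.5%). The B2m window held an interferon-stimulated core 139 bases before the start, Psmb8 a gamma-activated site 97 bases before it, and Erap1 a pair of overlapping reversed cores 9 and 3 bases before it. Tap1 and Psmb9 are transcribed away from each other, and their windows share 275 bases. These matches are descriptions of letters and not of bound factors.

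Most of the antigen presentation genes showed no call between the days. Of the 53 genes 17 passed the test (limma, Benjamini-Hochberg adjusted over all genes), 32.1%, against 44.4% of all genes. The 6 that rose on D4.5 (11.3%) were H2-Aa, H2-gs10, H2-M5, H2-Ke6, H2-Ob and H2-Ke2, where 18.0% of all genes rose. The 11 that fell (20.8%) were H2-M2, Erap1, H2-t9, H2-Q8, H2-M10.2, Ciita, Psmb8, H2-M10.6, H2-T23, Psme2 and H2-M11, where 26.4% of all genes fell. The same 18.0% and 26.4% of all genes stand beside each count of a smaller group or list below. No gene of the 53 reached a 2-fold change with an adjusted p under 0.05, which 5.5% of all genes did. The log2 changes ran from -0.78 in H2-M2 to 0.85 in H2-Aa with a median of -0.08, and the median of all genes was -0.07.

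Against the receptor genes, 5 of the 53 rose beyond the central range (14.7% of all genes did) and 1, H2-M2, fell beyond it (6.81% of all genes). The 3 arrays of each day did not overlap in 21 of the 53 genes (39.6%), and in 58.6% of all genes. Above the receptor level on both days lay 31 of the 53, of which 4 rose, 6 fell and 21 did not pass. At or under it on both days lay 20, of which 1 rose, 4 fell and 15 did not pass. Of all 21740 genes, 12893 lay above the receptor level on both days and 7039 at or under it on both. The plot of the 53 changes sets each interval against the range of the receptor genes.

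**Figure D1:**
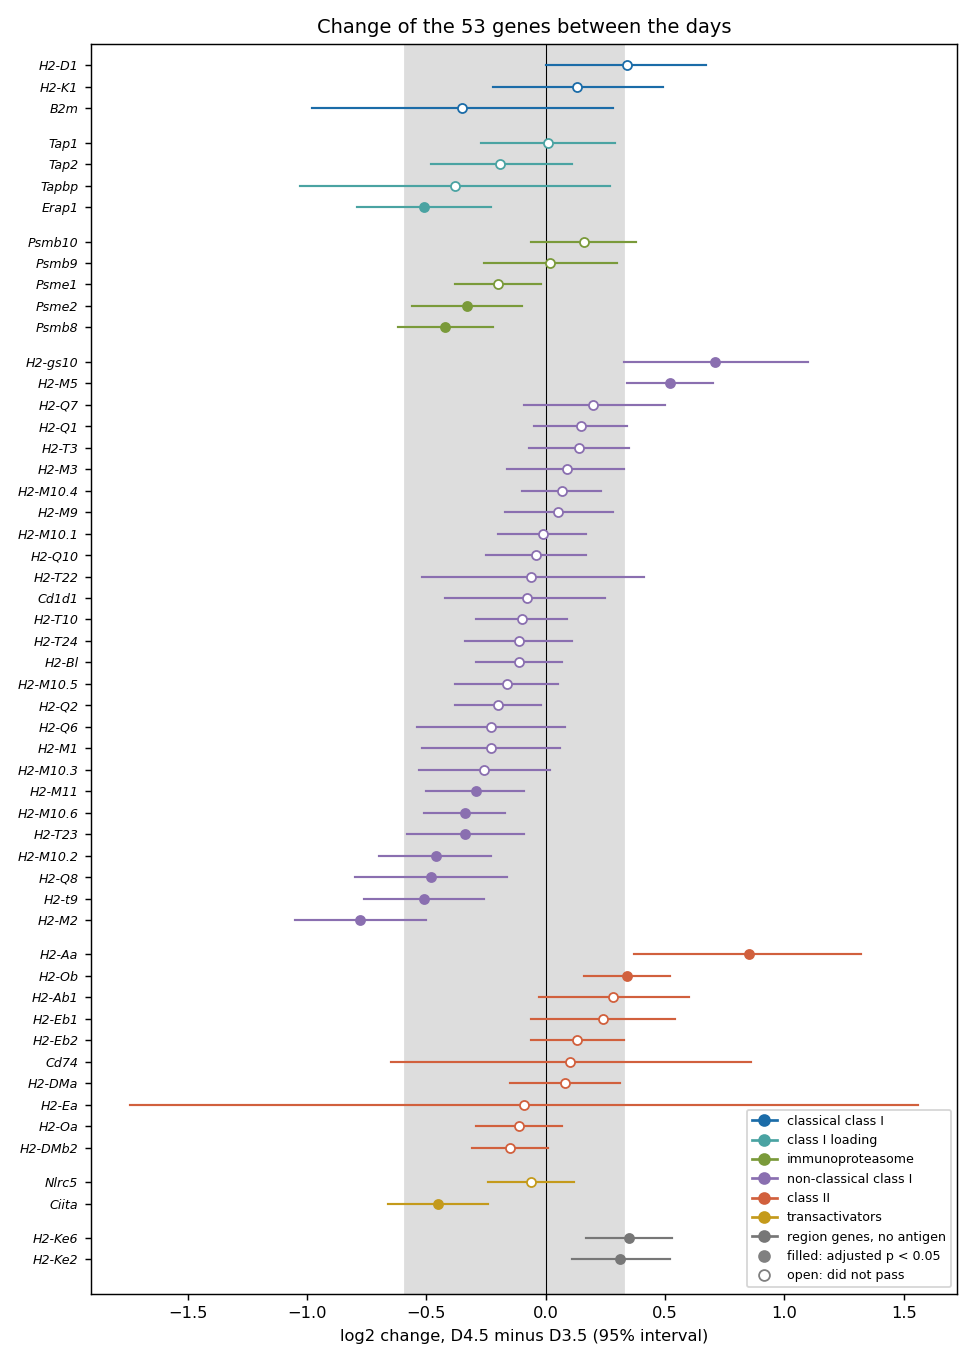
Log2 change from D3.5 to D4.5 of the 53 genes, grouped by role (horizontal axis, with 95% intervals; filled points passed at an adjusted p under 0.05). The grey band is the central 95% of the changes of the 1346 receptor genes, -0.59 to 0.33; H2-Aa at 0.85 and H2-M2 at -0.78 are the outermost points that passed.

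The count depends on how the arrays were brought to one scale. With each array centred on its median, 10 of the 53 rose and 6 fell, against 28.0% and 19.6% of all genes. With the intensities as deposited, where the median log2 change of all genes was -0.40, 1 rose and 32 fell, against 11.4% and 61.8% of all genes. Under all 3 scalings 1 gene, H2-gs10, rose (11.0% of all genes did), and 6 fell (17.8% of all genes did), namely H2-M2, H2-t9, H2-M10.2, Ciita, H2-M10.6 and H2-M11. A change named below holds in the quantile normalized values. For genes that passed, a scaling is given where one ends the call or turns the direction. Genes that did not pass can change sign with the scaling, and this is given for some of them.

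**Figure D2:**
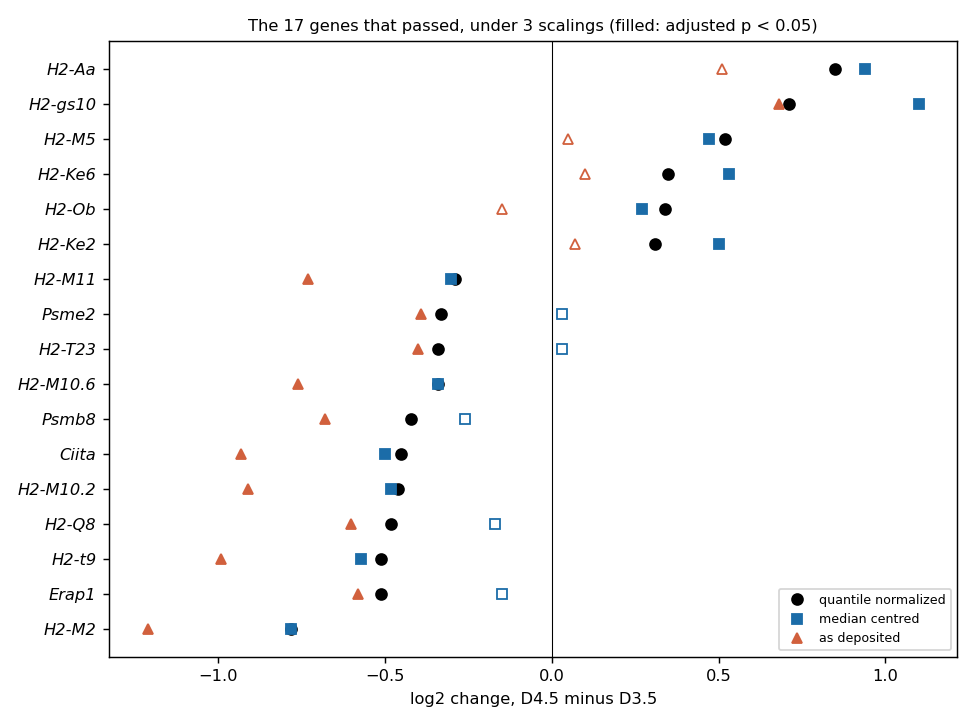
Log2 change from D3.5 to D4.5 of the 17 genes that passed, with quantile normalization (circles), median centring (squares) and the deposited values (triangles); filled symbols passed at an adjusted p under 0.05. H2-gs10 stays filled to the right of 0 at 0.71, 1.1 and 0.68, and H2-M2 to the left at -0.78, -0.78 and -1.21, while H2-Ob crosses to -0.15 as deposited and Psme2 and H2-T23 cross to 0.03 with median centring.

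The classical class I chains were above the receptor level on every array, and none of the 3 genes passed in limma, while 1, H2-D1, had an unadjusted p under 0.05 (0.049). B2m, the light chain shared by class I molecules, measured 10.9, 11.64 and 11.87 on the D3.5 arrays and 11.46, 11.15 and 10.75 on the D4.5 arrays. The days overlapped, with D3.5 array 1 the low one of its day. The log2 change of B2m was -0.35 ± 0.27 (SE, n = 3 per day; 95% interval -0.98 to 0.28; limma adjusted p = 0.323), and without D3.5 array 1 it was -0.64 with an adjusted p of 0.0451. With median centring its direction turned, to 0.18 (limma adjusted p = 0.723).

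H2-D1, one of the heavy chains that present peptides to cytotoxic T cells, measured 9.9, 10.2 and 10.37 on D3.5 and 10.62, 10.57 and 10.27 on D4.5. Only D4.5 array 3 fell inside the range of D3.5. Its change was 0.34 ± 0.14 (SE, n = 3 per day; 95% interval 0.00 to 0.67; limma adjusted p = 0.0921). It passed with median centring (0.82, adjusted p = 0.0221) and without D4.5 array 3 (0.45, adjusted p = 0.0485).

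H2-K1, the other heavy chain, measured 8.96, 9.31 and 9.46 on D3.5 and 9.5, 9.49 and 9.13 on D4.5, so the days overlapped. Its change was 0.13 ± 0.15 (SE, n = 3 per day; 95% interval -0.22 to 0.49; limma adjusted p = 0.505). Probes for one H2 class I heavy chain can bind transcripts of near-identical relatives, and these arrays cannot separate them.

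Of the 4 genes that load class I molecules, 1 passed. Tap1 and Tap2 form the pump that carries peptides from the cytosol into the endoplasmic reticulum. Tap1 measured 8.16, 8.21 and 8.17 on D3.5 and 8.47, 8.1 and 8.0 on D4.5, a change of 0.01 ± 0.12 (SE, n = 3 per day; 95% interval -0.27 to 0.29; limma adjusted p = 0.953). Tap2 measured 8.16, 7.72 and 7.81 on D3.5 and 7.72, 7.59 and 7.82 on D4.5, a change of -0.19 ± 0.13 (SE, n = 3 per day; 95% interval -0.48 to 0.11; limma adjusted p = 0.262). In both genes 1 array stood above the other 5, D4.5 array 1 for Tap1 and D3.5 array 1 for Tap2, and the days overlapped.

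Erap1, the peptidase that trims peptides inside the endoplasmic reticulum, fell. It measured 8.83, 8.42 and 8.5 on D3.5 and 8.2, 8.05 and 7.97 on D4.5, with no overlap. The change was -0.51 ± 0.12 (SE, n = 3 per day; limma adjusted p = 0.012), 1.42-fold lower on D4.5, and with median centring it was -0.15 (adjusted p = 0.231). Tapbp, tapasin, which holds the empty class I molecule at the pump, measured 9.75, 10.83 and 10.87 on D3.5 and 10.16, 10.05 and 10.11 on D4.5. D3.5 array 1 lay under every D4.5 array and the other D3.5 arrays above them. The change of Tapbp was -0.38 ± 0.28 (SE, n = 3 per day; limma adjusted p = 0.3), and -0.75 without D3.5 array 1 (adjusted p = 0.000503). With median centring its direction turned, to 0.11 (limma adjusted p = 0.818).

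The 10 partners of loading in the endoplasmic reticulum that are not part of the MHC set all had changes above 0, with a median of 0.30, and 5 rose; in the deposited values Sec61b and Tapbpl were at -0.25 and -0.19. Hspa5, the main chaperone of this compartment, changed by 0.95 ± 0.12 (limma adjusted p = 0.000847), Ganab, which trims glucose from new glycoproteins, by 0.79 ± 0.08 (limma adjusted p = 0.000392) and Canx, calnexin, which holds unfolded heavy chains, by 0.49 ± 0.07 (limma adjusted p = 0.00163; SE, n = 3 per day for each). Calr and Pdia3, the chaperone and the disulfide isomerase of the loading complex itself, did not pass, with changes of 0.22 ± 0.08 and 0.09 ± 0.10.

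One immune subunit of the proteasome, Psmb8, fell on D4.5 while its standard counterpart, Psmb5, rose. Psmb8, Psmb9 and Psmb10 replace Psmb5, Psmb6 and Psmb7 in the immunoproteasome, which cuts peptides fit for class I molecules. Psmb8 measured 7.63, 7.64 and 7.5 on D3.5 and 7.31, 7.06 and 7.15 on D4.5, with no overlap. It fell by 0.42 ± 0.09 on the log2 scale (SE, n = 3 per day; limma adjusted p = 0.00741), 1.34-fold, and with median centring the change was -0.26 (adjusted p = 0.0722). Its counterpart Psmb5 rose, from 10.27 ± 0.15 to 11.28 ± 0.04 (SD, n = 3 per day), a change of 1.01 ± 0.09 (SE; limma adjusted p = 0.000184). The difference between the 2 changes was not tested.

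Psmb9 measured 7.43, 7.87 and 7.81 on D3.5 and 7.71, 7.69 and 7.77 on D4.5, a change of 0.02 ± 0.12 (SE, n = 3 per day; 95% interval -0.26 to 0.30; limma adjusted p = 0.899). Psmb10 measured 7.39, 7.68 and 7.43 on D3.5 and 7.74, 7.63 and 7.62 on D4.5, a change of 0.16 ± 0.09 (SE, n = 3 per day; 95% interval -0.06 to 0.38; limma adjusted p = 0.193), and with median centring it passed (0.37, adjusted p = 0.0295). The days overlapped in both genes. Their counterparts Psmb6 and Psmb7 did not pass either, with changes of 0.12 ± 0.08 and -0.06 ± 0.07.

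Psme1 and Psme2 form the activator ring that interferon gamma adds to the proteasome. Psme2 passed with a change of -0.33 ± 0.10 (SE, n = 3 per day; limma adjusted p = 0.0302), and Psme1 did not, at -0.20 ± 0.08 (limma adjusted p = 0.0646; -0.24 and 0.0381 without D3.5 array 1). With median centring both directions turned, to 0.24 in Psme1 (limma adjusted p = 0.161) and 0.03 in Psme2. Psme2 lost its call without D3.5 array 1 or 3 or D4.5 array 2 or 3 (-0.33 to -0.26). It was also measured on 2 rows that are not paired between the days. Psme3, the related nuclear activator, rose by 0.79 ± 0.10 (SE; limma adjusted p = 0.000893), and Psme4 fell by 0.41 ± 0.10 on the log2 scale (SE; limma adjusted p = 0.0142; 0.10 with median centring). Beside them stand 17 other proteasome genes, Psma1 to Psma7, Psmb1 to Psmb7, Psme3, Psme4 and Pomp. Of these 6 rose and 1, Psme4, fell, with a median change of 0.25. Of the 5 genes Psmb8, Psmb9, Psmb10, Psme1 and Psme2, 0 rose (0 also at an unadjusted p under 0.05) and 2 fell, with a median of -0.20. Over all genes 18.0% rose and 26.4% fell. The 17 genes hold more than counterparts of immune subunits, so these lists do not compare standard with immune subunits.

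**Figure D3:**
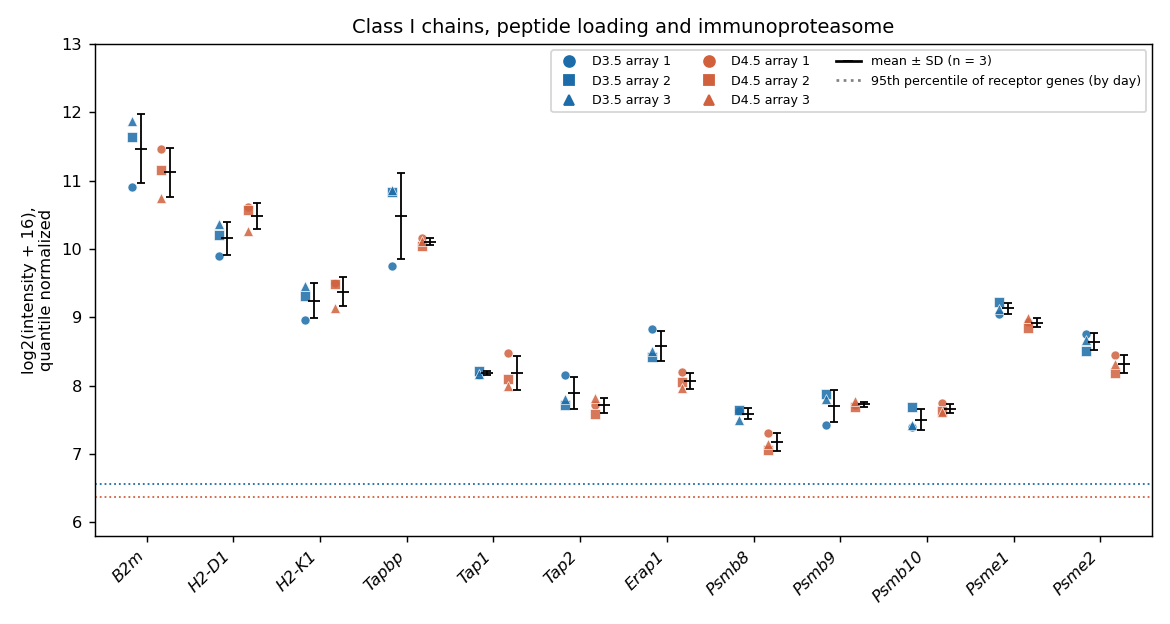
Level of the class I chains, loading genes and immune proteasome genes on each array (vertical axis, log2(intensity + 16), quantile normalized; blue D3.5, red D4.5, marker shape by array; bars are mean ± SD, n = 3). All 12 genes lie above the dotted 95th percentile lines of the receptor genes, 6.56 and 6.37; Erap1 and Psmb8 separate the days, and D3.5 array 1 is the low point of B2m and Tapbp.

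The largest group, 27 genes of non-classical class I type, held 2 that rose, 7 that fell and 18 that did not pass, with a median log2 change of -0.11. Over all genes 18.0% rose and 26.4% fell, with a median of -0.07. On both days 11 lay above the receptor level and 15 at or under it. H2-gs10 was the MHC gene that rose under all 3 scalings. It measured 8.07, 8.39 and 8.65 on D3.5 and 9.29, 8.86 and 9.1 on D4.5, so each D4.5 array was above each D3.5 array. The change was 0.71 ± 0.16 (SE, n = 3 per day; limma adjusted p = 0.0111), 1.64-fold higher on D4.5, and 0.56 to 0.85 with each array left out in turn.

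H2-M5 measured 6.32, 6.16 and 6.1 on D3.5 and 6.72, 6.69 and 6.72 on D4.5, above the receptor level on D4.5 and not on D3.5. Its change was 0.52 ± 0.08 (SE, n = 3 per day; limma adjusted p = 0.00185), and 0.05 in the deposited values (adjusted p = 0.7). H2-M2 measured 6.21, 5.8 and 5.96 on D3.5 and 5.17, 5.12 and 5.35 on D4.5, and neither day's mean exceeded the receptor level. It fell by 0.78 ± 0.12 on the log2 scale (SE, n = 3 per day; limma adjusted p = 0.00189), 1.71-fold. For so dim a gene the size depends on the added constant, with -1.14 for a constant of 1 and -0.39 for 64.

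H2-T23 and H2-Q8 were the remaining genes that fell and lay well above the receptor level. H2-T23 encodes Qa-1, which displays leader peptides of other class I chains to natural killer cells. It measured 8.59, 8.66 and 8.37 on D3.5 and 8.28, 8.28 and 8.06 on D4.5, a change of -0.34 ± 0.10 (SE, n = 3 per day; limma adjusted p = 0.0333). It was 0.03 with median centring, and it passed in 1 of the 6 fits that leave out an array, the one without D3.5 array 3 (otherwise -0.37 to -0.26). H2-Q8 changed by -0.48 ± 0.14 (SE, n = 3 per day; limma adjusted p = 0.0251), by -0.17 with median centring, and lost its call without D3.5 array 1 or 3 or D4.5 array 2 or 3 (-0.46 to -0.37).

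The M10 and M11 genes belong to a family known in mice from pheromone-sensing neurons. H2-M10.2 fell by 0.46 ± 0.10 on the log2 scale (SE, n = 3 per day; limma adjusted p = 0.0091), H2-M10.6 by 0.34 ± 0.07 (limma adjusted p = 0.00848) and H2-M11 by 0.29 ± 0.09 (limma adjusted p = 0.0272). H2-M11 lost its call without D3.5 array 1 or 3 or D4.5 array 1 or 2 (-0.30 to -0.26). H2-t9 fell by 0.51 ± 0.11 (SE; limma adjusted p = 0.00801). These 4 changes lie inside the central range of the receptor genes, and all but H2-M10.2 were at the receptor level on both days.

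The other 18 genes of this group did not pass, with changes from -0.26 in H2-M10.3 to 0.20 in H2-Q7. H2-Q7, one of the genes of Qa-2, a class I molecule also known from mouse embryos, measured 10.06, 9.88 and 9.91 on D3.5 and 10.4, 10.17 and 9.9 on D4.5. Its change of 0.20 ± 0.13 (SE, n = 3 per day; limma adjusted p = 0.227) became 0.69 with median centring (adjusted p = 0.00626) and 0.33 without D4.5 array 3 (adjusted p = 0.0482). H2-Q6 changed by -0.23 ± 0.13, H2-Q2 by -0.20 ± 0.08, H2-Q1 by 0.15 ± 0.08 and H2-Q10, a secreted chain of the liver, by -0.04 ± 0.09. H2-T22 and H2-T10, ligands of gamma delta T cells, changed by -0.06 ± 0.20 and -0.10 ± 0.08, H2-T24 by -0.11 ± 0.10 and H2-T3, the thymus leukaemia antigen of gut epithelium, by 0.14 ± 0.09. H2-T22 was low on D3.5 array 1, at 7.12 against 7.96 and 7.79 on the other D3.5 arrays, and without that array its change was -0.31 (adjusted p = 0.0231). With median centring the change of H2-T22 was 0.12 (limma adjusted p = 0.636).

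H2-M3 changed by 0.09 ± 0.10, and by 0.20 without D3.5 array 1 (adjusted p = 0.0494). H2-M1 changed by -0.23 ± 0.12, and by -0.37 without D4.5 array 3 (adjusted p = 0.0144). H2-M9 changed by 0.05 ± 0.10, H2-Bl by -0.11 ± 0.08, H2-M10.1 by -0.01 ± 0.08, H2-M10.3 by -0.26 ± 0.12, H2-M10.4 by 0.07 ± 0.07 and H2-M10.5 by -0.16 ± 0.09. Cd1d1, which shows lipids to natural killer T cells, was at the receptor level on both days and changed by -0.08 ± 0.14 (SE, n = 3 per day; limma adjusted p = 0.66). Of the class I-like chains outside the MHC set, 9 of 14 listed genes were measured. Mill2 rose by 0.24 ± 0.06 (SE, limma adjusted p = 0.0167). As deposited Mill2 passed in the other direction, at -0.26 (limma adjusted p = 0.0139). With median centring it did not pass, at 0.17 (limma adjusted p = 0.0687). Procr, the endothelial receptor of protein C, rose by 0.65 ± 0.18 (SE, limma adjusted p = 0.0221), and by 0.33 as deposited (limma adjusted p = 0.149). Mill1 fell by 0.53 ± 0.09 on the log2 scale (SE, limma adjusted p = 0.00281), and the other 6 did not pass.

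Of the 10 class II genes 2 rose, 0 fell and 8 did not pass in limma, with a median log2 change of 0.12, and 0 had a lower level with an unadjusted p under 0.05. Over all genes 18.0% rose and 26.4% fell. H2-Aa, the alpha chain of the class II molecule I-A, showed the widest rise of the 53 genes. It measured 6.71, 6.76 and 6.59 on D3.5 and 7.9, 7.65 and 7.03 on D4.5. All D4.5 arrays were above all D3.5 arrays, with D4.5 array 3 the closest to them. The change was 0.85 ± 0.20 (SE, n = 3 per day; 95% interval 0.37 to 1.32; limma adjusted p = 0.013), 1.8-fold. It was 0.51 in the deposited values (adjusted p = 0.0903) and 0.78 without D4.5 array 2 (adjusted p = 0.0509).

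H2-Ab1, the beta chain that pairs with H2-Aa, measured 6.99, 7.29 and 7.01 on D3.5 and 7.51, 7.51 and 7.12 on D4.5. Arrays 1 and 2 of D4.5 were above D3.5 and array 3 lay within it. Its change was 0.28 ± 0.13 (SE, n = 3 per day; 95% interval -0.03 to 0.60; limma adjusted p = 0.124), and without D4.5 array 3 it was 0.41 (adjusted p = 0.0302).

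H2-Eb1, the beta chain of the class II molecule I-E, measured 7.43, 7.86 and 7.77 on D3.5 and 8.07, 7.94 and 7.77 on D4.5. D4.5 array 3 was equal to D3.5 array 3 at this precision. Its change was 0.24 ± 0.13 (SE, n = 3 per day; 95% interval -0.06 to 0.54; limma adjusted p = 0.165), and with median centring 0.48 (adjusted p = 0.0367).

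Cd74, the invariant chain that blocks the peptide groove of class II molecules until they reach the endosome, measured 8.07, 8.27 and 7.65 on D3.5 and 8.68, 8.25 and 7.35 on D4.5. The lowest and the highest of the 6 arrays were both of D4.5. Its change was 0.10 ± 0.32 (SE, n = 3 per day; limma adjusted p = 0.817), and the 95% interval of -0.65 to 0.86 covers changes as wide as that of H2-Aa.

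H2-Ob, a chain of the molecule H2-O that restrains peptide exchange on class II, measured 5.76, 5.96 and 5.86 on D3.5 and 6.23, 6.23 and 6.14 on D4.5. It rose by 0.34 ± 0.08 (SE, n = 3 per day; limma adjusted p = 0.0108) but did not exceed the receptor level on either day, and as deposited the direction turned to -0.15, or 0.25 above the median of all genes. Its partner H2-Oa changed by -0.11 ± 0.08. H2-DMa and H2-DMb2, chains of the molecule that exchanges peptides on class II, changed by 0.08 ± 0.10 and -0.15 ± 0.07, and H2-Eb2 by 0.13 ± 0.08; none of these 4 passed.

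H2-Ea, the alpha chain of I-E, measured 7.36, 5.61 and 5.64 on D3.5 and 7.64, 5.39 and 5.3 on D4.5. On each day array 1 was high, and the other 2 arrays were at the receptor level. The gene is known to be silenced by a deletion in C57BL/6 mice and other strains of the same haplotype. The mice were of mixed background, and their haplotypes were not analysed here.

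**Figure D4:**
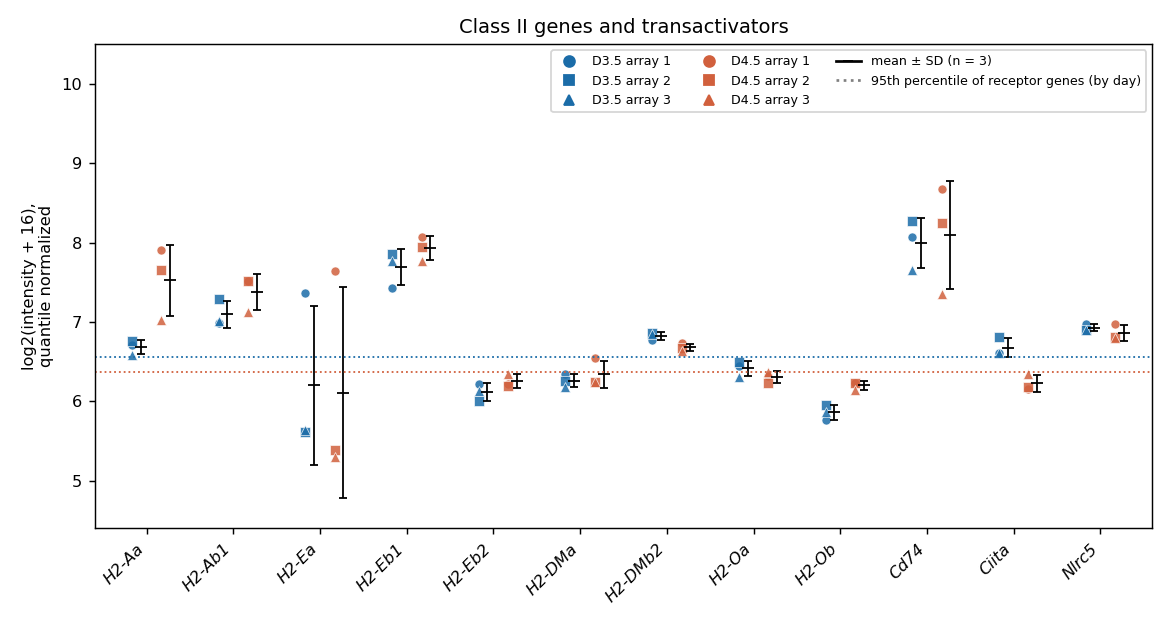
Level of the class II genes and of the transactivators Ciita and Nlrc5 on each array (vertical axis, log2(intensity + 16), quantile normalized; blue D3.5, red D4.5, marker shape by array; bars are mean ± SD, n = 3; dotted lines are the 95th percentile of the receptor genes by day). H2-Aa separates the days with all D4.5 arrays higher, Ciita separates them with all D4.5 arrays lower, and H2-Ea is at 7.36 and 7.64 on array 1 of each day and at 5.3 to 5.64 on the other 4 arrays.

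Class II genes are carried by leukocytes, so leukocyte markers are given beside them. In such bulk sheets, more cells of a type and more RNA per cell cannot be told apart. Of 48 leukocyte markers 3 rose (Csf1r, Emr1 and Gzma), 9 fell and 36 did not pass, with a median change of -0.03. As deposited none of the 3 passed, and Gzma turned to -0.12 (adjusted p = 0.34). The mean level of these markers was 6.54 to 6.65 on the D3.5 arrays and 6.75, 6.53 and 6.40 on the D4.5 arrays. The number above the 95th percentile of the receptor genes on the same array was 16, 26 and 23 on D3.5 and 33, 29 and 22 on D4.5. The receptor level was lower on D4.5 (6.37 against 6.56 for the day means), so these counts can go up without a rise of the markers.

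Csf1r, the growth factor receptor of macrophages, rose by 0.76 ± 0.13 (SE, n = 3 per day; limma adjusted p = 0.00365; 0.36 and 0.0847 as deposited), and Emr1, the macrophage antigen F4/80, by 0.61 ± 0.18 (limma adjusted p = 0.0313; 0.14 and 0.523 as deposited). Ccr7 and Xcr1, receptors of dendritic cells, fell by 0.77 ± 0.08 (limma adjusted p = 0.000455) and 0.67 ± 0.19 (limma adjusted p = 0.0266) on the log2 scale. Lyz1, of the same list of macrophage and dendritic cell markers, fell by 1.25 ± 0.16 (limma adjusted p = 0.000919), the widest change of that list. Ptprc, the general leukocyte marker CD45, did not pass at 0.10 ± 0.25, and neither did Itgax, CD11c, at 0.24 ± 0.18. None of the 5 B cell markers was above the receptor level on both days.

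Within D4.5, H2-Aa and Cd74 were highest on array 1 and lowest on array 3. The same order held for the mean of the 10 general leukocyte markers (7.52, 7.05 and 6.75), the 17 macrophage and dendritic cell markers (6.93, 6.73 and 6.55), the 6 natural killer cell markers (6.65, 6.21 and 5.95), the 9 stromal markers (8.61, 8.01 and 7.32) and the 7 endothelial markers (7.69, 7.19 and 6.6). It did not hold for the 5 B cell markers (5.93, 5.99 and 6.08), the 6 T cell markers (6.22, 6.22 and 6.29) or the 4 granulocyte markers (6.08, 6.04 and 6.18). On D3.5 the general leukocyte markers averaged 6.86, 7.11 and 6.97 and the stromal markers 7.99, 8.31 and 7.81. The macrophage genes Csf1r (7.47, 7.16 and 6.92) and Emr1 (6.8, 6.4 and 6.0) had the same order on D4.5. Like H2-Aa, both were above all D3.5 arrays (6.37 to 6.47 and 5.69 to 5.87) on each D4.5 array. They were the only 2 of the 17 macrophage and dendritic cell markers that rose, while 3 fell and 12 did not pass. C1qb, Lyz2 and Cd68 overlapped between the days. Lyz1 was lower on the D4.5 arrays (7.08, 7.06 and 6.74) than on the D3.5 arrays (8.5, 7.91 and 8.23). In the deposited intensities H2-Aa on D4.5 array 3, at 97.4, lay within the 95.3 to 112.0 of the D3.5 arrays. The part of these cells in the rise of H2-Aa was not tested.

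**Figure D5:**
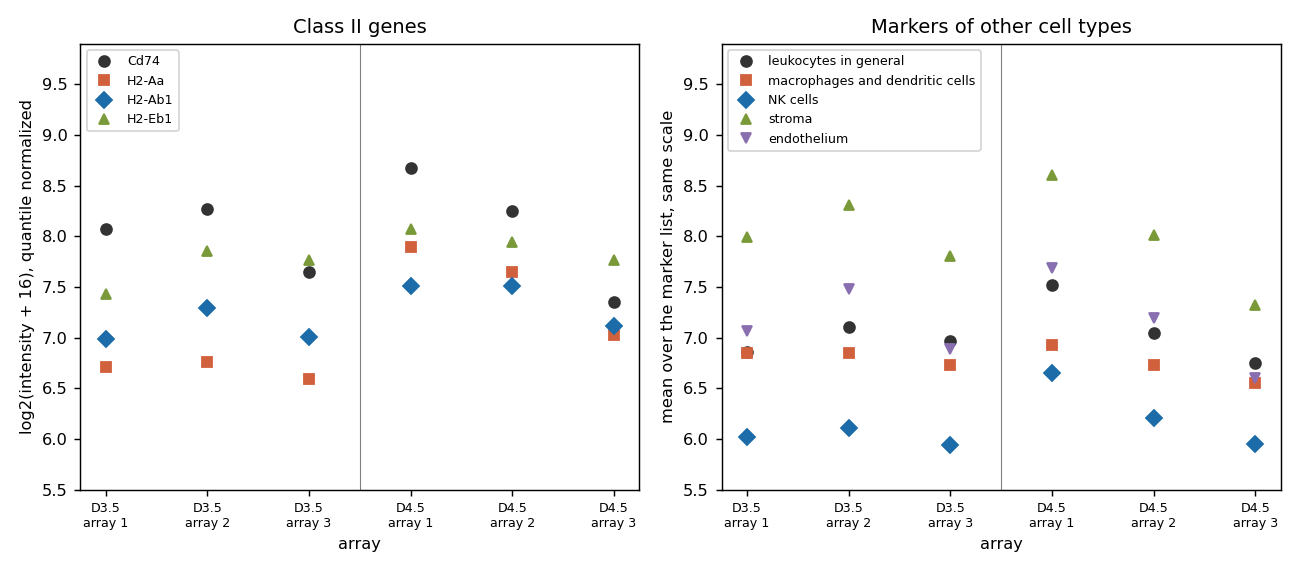
Level of 4 class II genes (left) and mean level of marker lists of other cell types (right) on each array (vertical axes, log2(intensity + 16), quantile normalized; D3.5 arrays left of the line, D4.5 arrays right of it). On D4.5, Cd74 goes from 8.68 on array 1 to 7.35 on array 3, H2-Aa from 7.9 to 7.03 and the stromal mean from 8.61 to 7.32.

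Ciita, the transactivator on which transcription of class II genes depends, fell while H2-Aa rose. Ciita measured 6.61, 6.81 and 6.61 on D3.5 and 6.15, 6.18 and 6.35 on D4.5, with no overlap. It fell by 0.45 ± 0.09 on the log2 scale (SE, n = 3 per day; limma adjusted p = 0.00632), 1.37-fold, under all 3 scalings and without any one of the 6 arrays. It was above the receptor level on D3.5 alone, and its change lies inside the central range of the receptor genes.

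Nlrc5, the transactivator of class I genes, was measured on 19 rows and averaged 6.98, 6.9 and 6.9 on D3.5 and 6.98, 6.81 and 6.8 on D4.5. Its change was -0.06 ± 0.08 (SE, n = 3 per day; 95% interval -0.24 to 0.12; limma adjusted p = 0.55). With the row of the highest mean in place of the mean of rows, Nlrc5 was -1.84, H2-Q2 -1.47 and Psme2 -1.50, but rows that share a symbol are not paired between the days in this table.

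Among 20 genes of the interferon gamma path and the class II promoter complex 6 rose and 6 fell, with a median change of 0.05. Irf1, an interferon-induced factor that acts on class I, Ciita and immunoproteasome promoters, rose from 7.37 ± 0.07 to 8.15 ± 0.26 (SD, n = 3 per day), a change of 0.78 ± 0.13 (SE; limma adjusted p = 0.00274). The receptor chain Ifngr1 rose by 0.37 ± 0.08 (SE; limma adjusted p = 0.00674), and the other chain, Ifngr2, fell by 0.74 ± 0.08 on the log2 scale (SE; limma adjusted p = 0.00034; -0.21 and 0.23 with median centring). Rfxap, a subunit of the RFX complex that binds class II promoters, rose by 0.45 ± 0.09 (SE; limma adjusted p = 0.00674; 0.10 and 0.315 as deposited). Socs1, an inhibitor of interferon signalling, fell by 0.57 ± 0.09 (SE; limma adjusted p = 0.00205), and Cd274, the checkpoint ligand PD-L1, by 0.79 ± 0.15 (SE; limma adjusted p = 0.00498).

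Of 7 measured genes of class II peptide processing 2 rose and 1 fell. Ctsl, the protease cathepsin L, changed by 1.11 ± 0.19 (SE, n = 3 per day; limma adjusted p = 0.00347), and Ifi30, which reduces disulfide bonds of antigens in lysosomes, by 0.69 ± 0.14 (SE; limma adjusted p = 0.00708). Ctsd, cathepsin D, fell by 0.64 ± 0.12 on the log2 scale (SE; limma adjusted p = 0.00498; -0.12 with median centring). Ctss, cathepsin S, the protease of class II bearing leukocytes that cuts the invariant chain, did not pass at 0.14 ± 0.14.

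The last genes carry an H2 symbol because they lie in the MHC region, and they present no antigen. H2-Ke6, which encodes the steroid dehydrogenase Hsd17b8, measured 7.35, 7.17 and 7.37 on D3.5 and 7.61, 7.68 and 7.64 on D4.5, with no overlap, and rose by 0.35 ± 0.08 (SE, n = 3 per day; limma adjusted p = 0.00939). H2-Ke2, a subunit of the folding complex prefoldin, rose by 0.31 ± 0.09 (SE; limma adjusted p = 0.0236) and lost its call without D3.5 array 2 or 3 or D4.5 array 2 or 3 (0.25 to 0.31). As deposited these changes were 0.10 and 0.07, and neither passed.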

How the data were processed

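The deposited table holds linear intensity values of 6 one-colour Affymetrix arrays, made by the authors from biotinylated cRNA, per the labels' protocols; no source used here gives the summary method, annotation or build. The table has 35556 rows with an identifier; 1 differed from a second deposited table of the same values. Rows with exactly 1 symbol (25070) gave 21740 genes, 4 of the 53 with several rows. Over 1-row genes the means of the days correlated with r = 0.931, and deviations of rows from their symbol mean with 0.001 between days, so the mean of rows was used.

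Intensities were turned into log2(intensity + 16), quantile normalized over all rows and compared (D4.5 minus D3.5) with limma 3.58.1 in R 4.3.3 (lmFit, eBayes, two-sided; 7.4 total degrees of freedom for the 95% intervals), with Benjamini-Hochberg adjustment over all genes and a threshold of 0.05. No detection filter was used, and the number of arrays limits the precision. Same-numbered arrays correlated with -0.06, 0.056 and 0.096 after removal of the day means, and their numbers were not taken to pair them. The steps were tested on simulated data, with 50 of 21740 genes changed at each size. Log2 changes of 0.5 were recovered in 48% of these genes, of 1.0 in 78% and of 2.0 in 98%. A gene without a call may thus have changed. Far more genes were called in the real data, so the shares may differ there. Promoter windows are from RefSeq, GRCm38.p6. Python 3.11.15, pandas 2.3.3 and matplotlib 3.10.9 were used.

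Genes with full values were those that passed outside the receptor range and a named core of class I, class II and proteasome genes; from context lists, up to 3 per direction with the smallest p, and a few others that were chosen after their values were seen. Members and lists were chosen with earlier results of these data known. Alternatives were 2 scalings, constants of 1 and 64, other uses of rows, genes above the median level, other moderation, weighted arrays, a replicate block and leaving out single arrays.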

Additional observations from a re-analysis of the deposited data

How the results depend on the processing

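Of 818 values of the 53 genes under the alternatives, 738 kept their direction and their side of the threshold, or failed the test in both fits (36 of these with the other sign); 29 lost the call, 41 gained one and 10 reversed. The scaling between the days moved most. The rises numbered 6 (3914 of all genes), 10 (6093) with median centring and 1 (2483) as deposited; the falls numbered 11 (5737), 6 (4264) and 32 (13431). The median change of the 53 genes was -0.08, 0.03 with median centring and -0.40 as deposited, where the median of all genes was 0.02 and -0.40. As deposited, the direction turned in H2-DMa (-0.41), H2-Eb2 (-0.37), H2-M10.4 (-0.43), H2-M3 (-0.29), H2-M9 (-0.45), H2-Ob (-0.15), H2-Q1 (-0.22) and H2-T3 (-0.34). With median centring it turned in H2-T23 (0.03) and Psme2 (0.03). Genes that passed in neither fit also changed sign, 5 as deposited and 11 with median centring. B2m (0.18) and Tapbp (0.11) were among the latter. With genes above the median level, which leaves 27 of the 53, falls numbered 5 (2883 of all genes) and the median change was 0.02. With array weights 9 rose and 18 fell (4941 and 7449 of all genes). With each array left out, rises were 4 to 8 (2942 to 4076 of all genes), falls 7 to 11 (3598 to 5737), each lowest without D4.5 array 2, and the median change -0.13 to -0.05. With the replicate block 6 rose and 11 fell (3530 and 4753 of all genes), with a median change of -0.08, and no call of the 53 changed. The causes were not tested, save that fewer genes or arrays were tested where some were left out. Low intensities, at which added constants and cross-hybridization weigh most, limit the 20 genes at the receptor level on both days.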
